A study of Mus musculus with 12 samples.

Results

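The cytosolic ribosomal proteins are the protein components of the large and small subunits of the ribosome in the cytoplasm. Genes were taken by symbol, as those named Rpl or Rps with a number, Rplp1, Rplp2 and Rpsa, leaving out the ribosomal protein S6 kinases and symbols marked as pseudogenes. The rule found 61 of the 6427 genes measured, by 113 of the 10356 spots that the probe table ties to 1 gene. Of the 61 genes, 33 encode proteins of the large subunit, 21 proteins of the small subunit, 2 the acidic stalk proteins and 5 paralogs or related proteins (Rpl10l, Rpl22l1, Rpl7l1, Rps27l and Rps4l). In all, 25 genes had 1 spot and 36 had at least 2.

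Total RNA came from whole brains of C57Bl/6j mice at postnatal day 10, extracted with Trizol and labelled directly with Cy5 or Cy3. The mice were Gja9 (-/-), called Gja9_null here, Gja9 (+/-), called Gja9_het, or wildtype, with 4 samples each. Gja9 is an older symbol of Gjd2, which encodes the neuronal gap junction protein connexin36. The study set out to ask how loss of one or both copies alters the brain transcriptome. Each of the 6 spotted cDNA arrays held extracts of 1 genotype in both colours, so every sample is 1 colour of an array and each genotype rests on 2 arrays. The design text calls the samples biological replicas, and nothing further says how many animals they came from. P-values then measure the spread between these samples, not between a known number of animals. Because the fit ties the 2 colours of an array together, they rest mainly on the spread between the 2 arrays of a genotype. The targeted gene is not analysed here, so the genotype labels were not checked against it. The labels limit the knockout to no cell type and name no allele, and whole brain mixes all of its cell types. Markers of neurons (5 of 8 listed), astrocytes (3 of 7) and oligodendrocytes (3 of 8) had values in every sample.

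Ribosomal proteins are built into subunits in near-equal numbers in the nucleolus, and most of their genes are transcribed at a high rate in every cell. Their messenger RNAs typically begin with a cytosine followed by an unbroken run of pyrimidines, the terminal oligopyrimidine or TOP motif, through which the mTOR kinase controls their translation together. In the developing brain ribosome production is high in dividing progenitors and in growing neurons, where ribosomes also serve dendrites and axons.

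The start sequences were examined for this motif, which the choice of genes did not use. RefSeq promoters (build GRCm38.p6) matched 46 of the 61 genes, with 56 promoters of 250 bases before and 50 after the annotated start. The sequences below run from 10 bases before the start through the first 20 transcribed bases. Capitals mark the longest run of pyrimidines that reaches the start or lies within 5 bases of it. Genes of both subunits and the stalk with the motif at the annotated start are shown first. They are the minority, and the last 4 stand for the genes whose annotated start lacks a C with 4 pyrimidines after it, chosen because their values are described below.
Rpl15, chr14:18270967-18270996, minus strand: agaaagCCTTCTTCCTTTCCTCTggcggca
Rpl14, chr9:120571507-120571536, plus strand: ggCCCTCTCTCTTCTCgctgagcgccgcca
Rpl35, chr2:39005112-39005141, minus strand: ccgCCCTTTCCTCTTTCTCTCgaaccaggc
Rpl38, chr11:114668570-114668599, plus strand: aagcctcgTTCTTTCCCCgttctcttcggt
Rps6, chr4:86857348-86857377, minus strand: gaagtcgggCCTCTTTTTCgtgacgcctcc
Rps15a, chr7:118116128-118116157, minus strand: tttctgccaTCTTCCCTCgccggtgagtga
Rplp2, chr7:141447641-141447670, plus strand: cagcgTCTTCCTTTCgccgccggacgccgc
Rpl37a, chr1:72711250-72711279, plus strand: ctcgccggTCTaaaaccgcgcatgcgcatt
Rpl4, chr9:64173377-64173406, plus strand: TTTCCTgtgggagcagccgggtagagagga
Rpl24, chr16:55966265-55966294, plus strand: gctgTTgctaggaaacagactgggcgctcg
Rps25, chr9:44407704-44407733, plus strand: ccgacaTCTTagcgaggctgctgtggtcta

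A C at the start followed by at least 4 pyrimidines was present in 12 of the 56 promoters (21.4%), against 2.51% of all 32851 RefSeq promoters. At least 8 pyrimidines in a row inside the window from 5 bases before to 19 bases after the start were present in 35.7%, against 8.52% of all. A longer run that began before the window counted by its part inside. The starts are those of the annotation and were not measured here. Among short motifs searched on both strands over the whole promoter, CCGGAAG (an ETS-type motif) was in 37.5% against 8.86% of all, AAGATGG (a YY1-type motif) in 16.1% against 6.34%, and GGGCGG (an Sp1-type motif) in 64.3% against 35.7%. TATAAA was in 3.57% against 13.6%. A match describes the letters and is not a measured binding site.

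**Figure D1:**
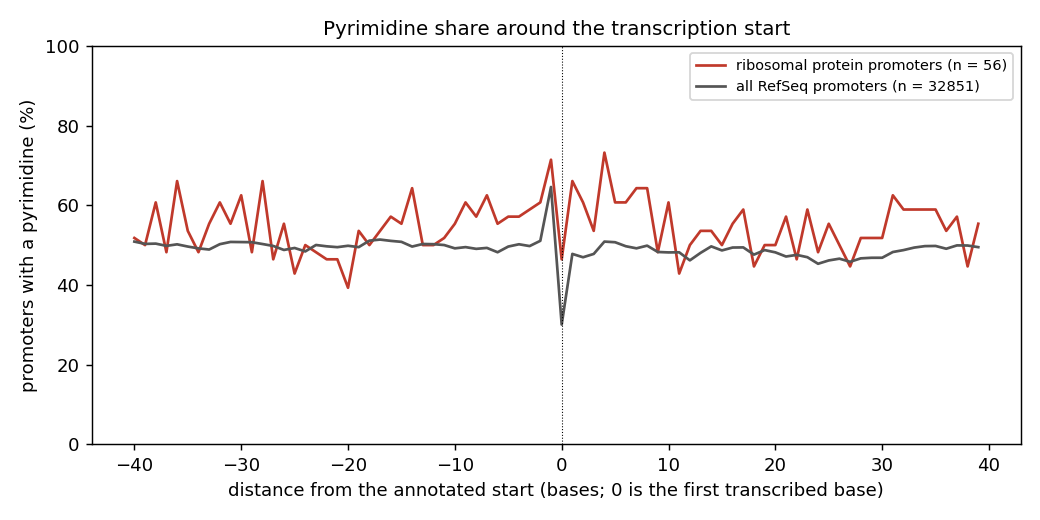
Percentage of promoters with a pyrimidine at each distance from the annotated start, for the 56 ribosomal protein promoters (red) and all 32851 RefSeq promoters (grey). Both lines drop at the start itself, and the red line lies above the grey one at each of the first 8 bases after it.

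Each value is a deposited log2 signal, set against the average signal in that sample, so that 0 is the sample's mean level, and spots of 1 gene were averaged. Differences were tested with limma over all 9514 features (genes, and spots without a single gene), and a feature was called where its Benjamini-Hochberg adjusted p was under 0.05. None of the 61 genes was called in any of the 3 genotype comparisons. In Gja9_null minus wildtype, 0 were called, against 0.326% of all features. In Gja9_het minus wildtype, 0 were called, against 0.0% of all features. In Gja9_null minus Gja9_het, 0 were called, against 0.273% of all features. The F-test over the 3 genotypes called 0 genes, against 0.326% of all features, and its smallest adjusted p among the genes (limma) was 0.274, for Rpl17. At an unadjusted p under 0.05 the genes numbered 3 in Gja9_null minus wildtype (4.92%, against 11.6% of all features), 0 in Gja9_het minus wildtype (against 2.19%), 5 in Gja9_null minus Gja9_het (8.2%, against 15.0%) and 3 in the F-test (4.92%, against 10.9%).

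The genes as a group had differences between genotypes close to those of all features. Their median log2 difference was 0.01 in Gja9_null minus wildtype, against -0.10 over all features, and the genes ranged from -1.71 to 0.65. It was -0.07 in Gja9_het minus wildtype, against 0.03, with a range from -0.73 to 0.56. It was 0.03 in Gja9_null minus Gja9_het, against -0.17, with a range from -1.39 to 1.01. Whether the genes or all features had the higher median in Gja9_null minus wildtype depended on the normalization. With quantile normalization the medians were -0.04 for the genes and 0.02 over all features, and with cyclic loess -0.01 and 0.02. With median centring they were 0.08 and -0.02. In bulk tissue, fewer cells of a type and less RNA per cell cannot be told apart.

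The median standard error was 0.35 log2 units, which sets what could be seen. The 95% interval stayed within 2-fold either way for 26 of the 61 genes in Gja9_null minus wildtype (42.6%, against 38.6% of all features), for 36 in Gja9_het minus wildtype (59.0% against 51.9%) and for 21 in Gja9_null minus Gja9_het (34.4% against 34.6%). For the remaining genes a 2-fold difference lay inside the interval.

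**Figure D2:**
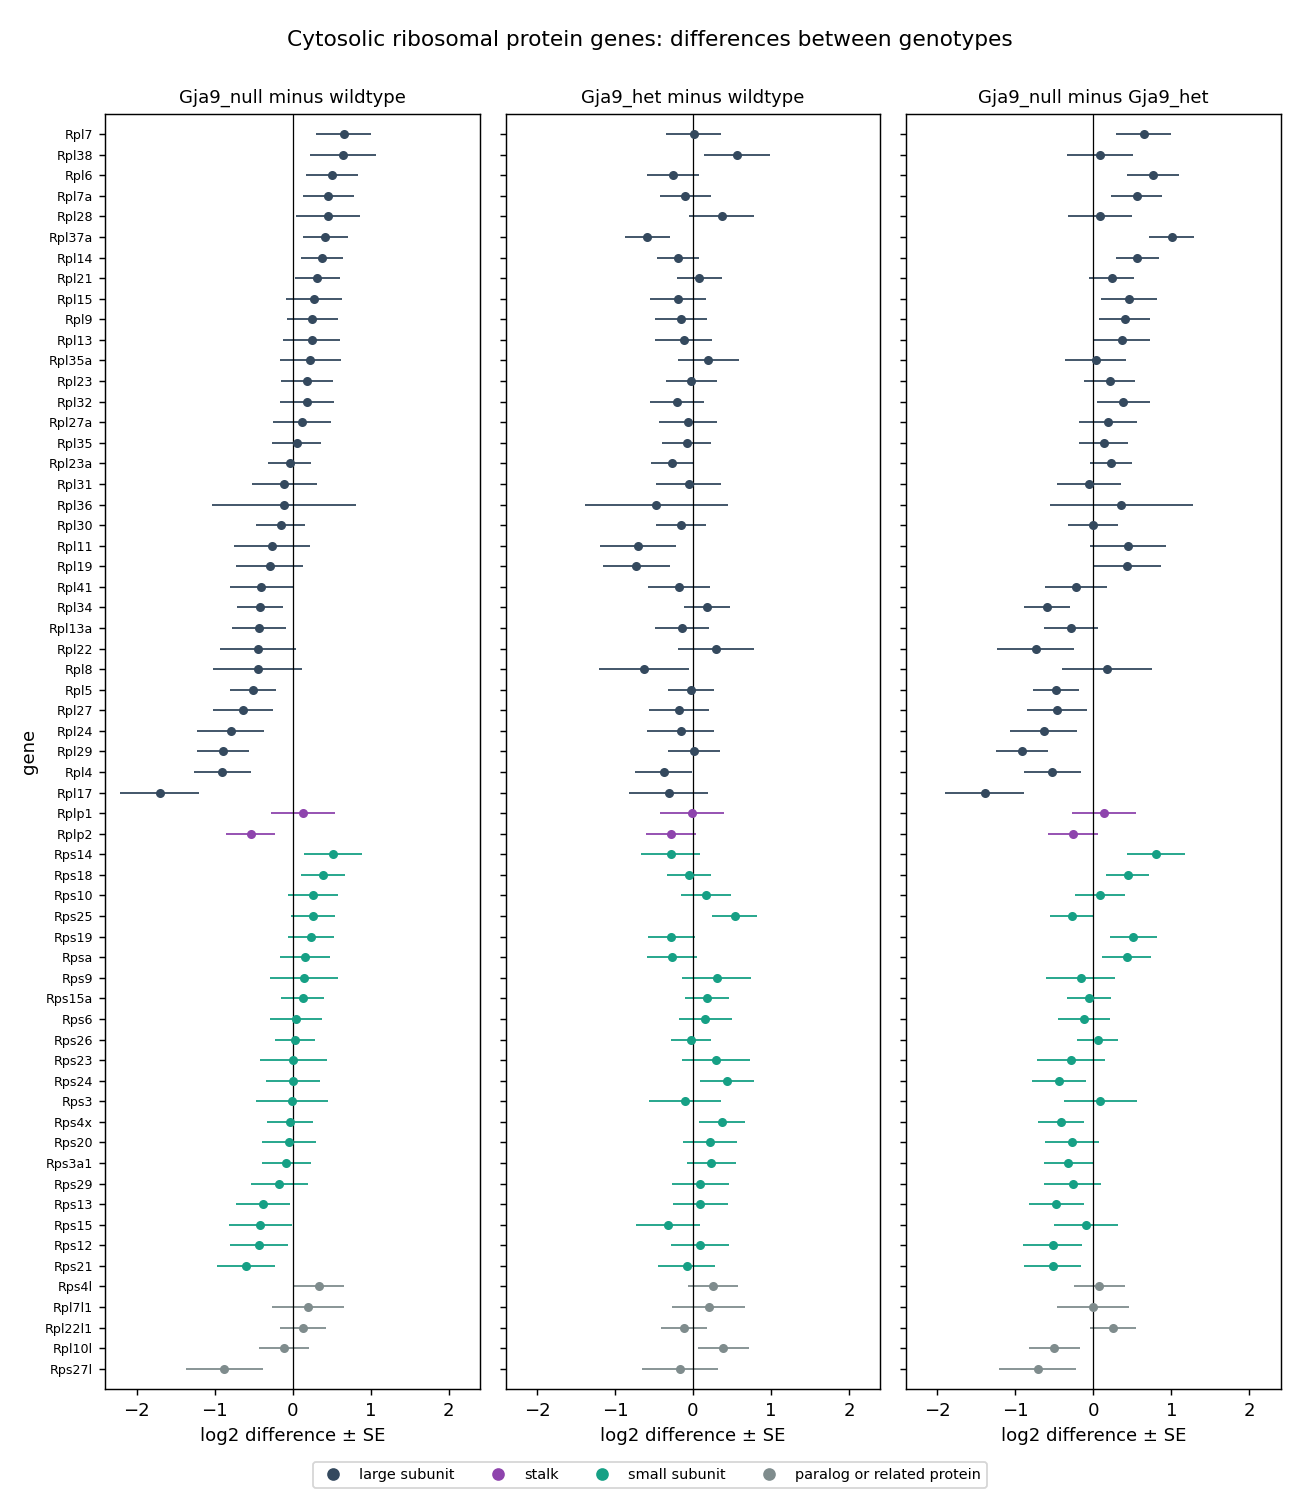
Log2 difference between genotypes (x axis) with its standard error (bars) for each of the 61 genes (y axis), grouped by role and ordered within a role by Gja9_null minus wildtype. Estimates lie on both sides of 0 in each comparison, and Rpl17 stands lowest at -1.71 in Gja9_null minus wildtype.

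Proteins of the large subunit include those that line the tunnel through which the new peptide leaves. The median over the 33 genes was -0.04 in Gja9_null minus wildtype, -0.15 in Gja9_het minus wildtype and 0.18 in Gja9_null minus Gja9_het. All 3 genes with an unadjusted p under 0.05 in Gja9_null minus wildtype belonged to this subunit and had lower estimates in Gja9_null samples (Rpl17, Rpl29 and Rpl4). Lower estimates with such a p made up 9.22% of all features.

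Rpl17 and Rpl4 encode proteins at the narrowest stretch of the exit tunnel. Rpl17 (1 spot) was at -0.21, 0.17, 1.37 and 1.28 in the Gja9_null samples, 2.22, 1.98, 1.96 and 2.02 in the Gja9_het samples and 2.52, 2.82, 2.0 and 2.09 in the wildtype samples. Every Gja9_null value was below every other value, and the first 2 Gja9_null samples were lower than the other 2 by more than 1 unit. The difference was -1.71 ± 0.51 (SE, n = 4 each) in Gja9_null minus wildtype (limma, adjusted p = 0.206) and -1.39 ± 0.51 in Gja9_null minus Gja9_het (adjusted p = 0.228). Neither passed the threshold.

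Rpl4 (2 spots of 1 cDNA clone) was at 0.10, -0.05, 0.02 and 0.28 in the Gja9_null samples, 0.32, 0.41, 0.78 and 0.94 in the Gja9_het samples and 0.60, 0.79, 1.15 and 1.42 in the wildtype samples. Gja9_null values were below all others, and the Gja9_het and wildtype samples overlapped. The fitted difference from wildtype was -0.91 ± 0.37 in Gja9_null samples (limma, adjusted p = 0.363). It came from 1 spot, which gave -1.76 ± 0.51, while the other spot of the same clone gave -0.05 ± 0.43.

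Rpl29, a small basic protein at the subunit surface, and Rpl24, which takes part in a bridge to the small subunit, each had 1 spot. Rpl29 was at -0.35, -0.45, 0.53 and 0.47 in the Gja9_null samples, 1.21, 1.25, 0.69 and 0.69 in the Gja9_het samples and 0.68, 0.64, 1.22 and 1.23 in the wildtype samples. Gja9_null samples lay below the others, with a difference from wildtype of -0.89 ± 0.33 (limma, adjusted p = 0.329). Rpl24 was at 0.68, 0.32, 1.92 and 1.95 in the Gja9_null samples, 1.76, 1.53, 2.09 and 2.04 in the Gja9_het samples and 2.10, 2.09, 1.96 and 1.92 in the wildtype samples. The last 2 Gja9_null samples fell within the range of the others, and the fitted difference from wildtype of -0.80 ± 0.43 (limma, adjusted p = 0.513) came from the first 2.

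**Figure D3:**
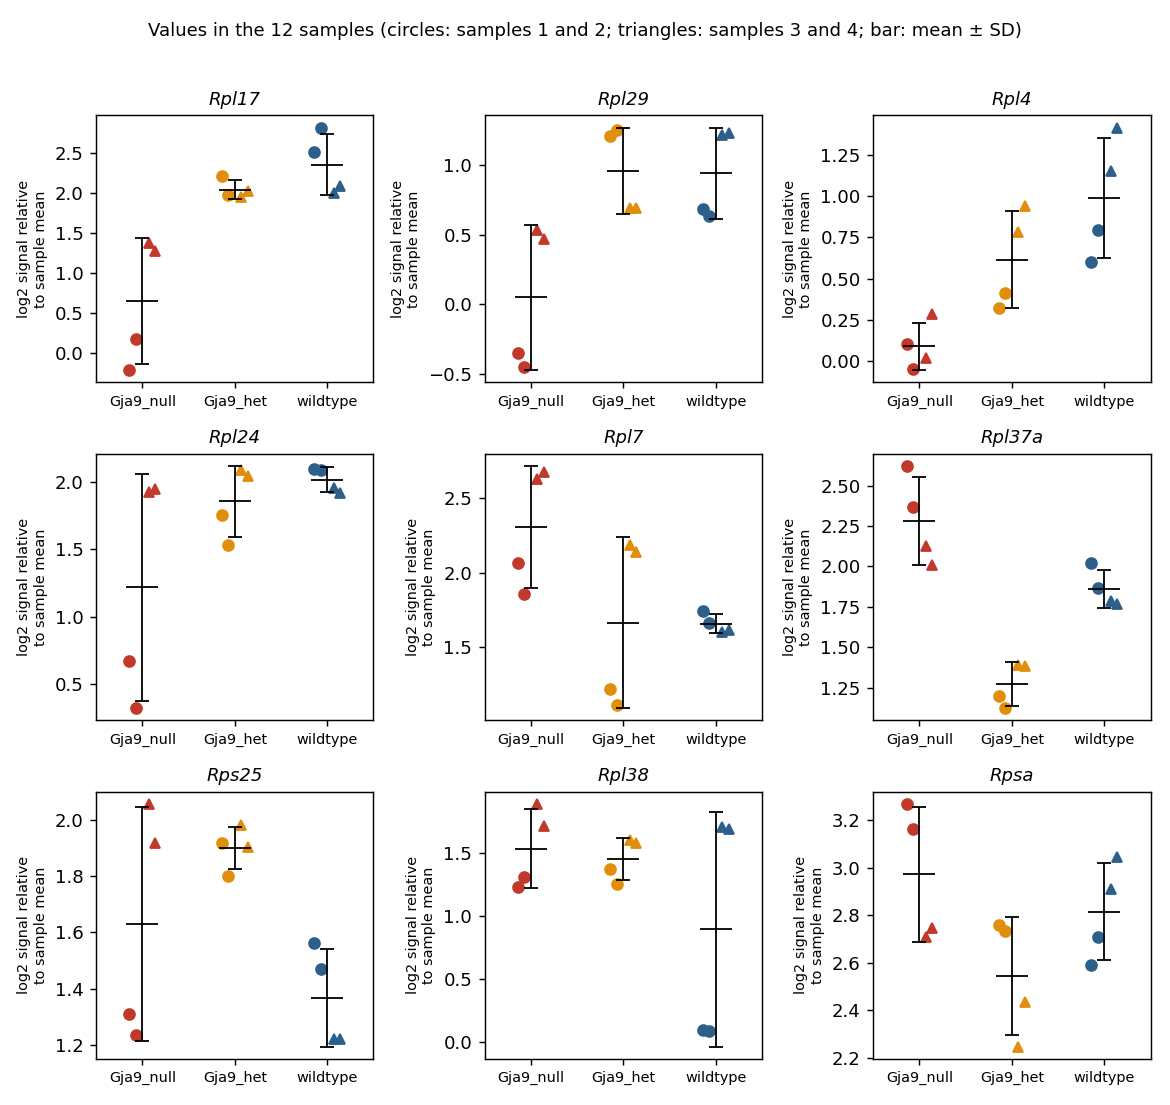
Log2 signal relative to the sample mean (y axis) for 9 genes in the 12 samples (points, with circles for samples 1 and 2 and triangles for samples 3 and 4 of a genotype, and bars for mean and SD, n = 4). Circles and triangles form separate pairs for many genes, as for Rpl24 in Gja9_null and Rpl38 in wildtype samples.

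Among higher estimates, Rpl7, a large subunit protein, was at 2.07, 1.86, 2.63 and 2.68 in the Gja9_null samples, 1.22, 1.11, 2.18 and 2.14 in the Gja9_het samples and 1.75, 1.66, 1.60 and 1.62 in the wildtype samples. All Gja9_null values were above all wildtype values. The difference was 0.65 ± 0.35 (limma, adjusted p = 0.516), and its 3 spots, all of 1 clone, gave 0.90, 0.50 and 0.56.

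Rpl37a, a zinc-binding large subunit protein, had the smallest adjusted p of the 61 genes in Gja9_null minus Gja9_het. It was at 2.62, 2.37, 2.13 and 2.01 in the Gja9_null samples, 1.20, 1.12, 1.39 and 1.38 in the Gja9_het samples and 2.02, 1.87, 1.79 and 1.77 in the wildtype samples. Gja9_het values lay below every other value, while Gja9_null and wildtype samples overlapped by a small margin. The difference was 1.01 ± 0.29 in Gja9_null minus Gja9_het (limma, adjusted p = 0.143), -0.59 ± 0.29 in Gja9_het minus wildtype (adjusted p = 1) and 0.42 ± 0.29 in Gja9_null minus wildtype (adjusted p = 0.618).

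Other large subunit genes of small p in Gja9_null minus Gja9_het were Rpl6 and Rpl14. Rpl6 averaged 2.55 ± 0.22 in Gja9_null samples and 1.78 ± 0.31 in Gja9_het samples (SD, n = 4 each), a difference of 0.76 ± 0.33 (limma, adjusted p = 0.308). Rpl14 averaged 2.14 ± 0.07 in Gja9_null samples and 1.58 ± 0.11 in Gja9_het samples, a difference of 0.56 ± 0.27 (limma, adjusted p = 0.351). Both were higher in all 4 Gja9_null samples than in any Gja9_het sample. Rpl7a, also without overlap, differed by 0.56 ± 0.33 (limma, adjusted p = 0.437).

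In Gja9_het minus wildtype, estimates were below 0 for 25 of the 33 large subunit genes, against 45.6% of all features, and none passed the test. Rpl19, which bridges the subunits, was at 0.91, 0.78, 2.48 and 2.52 in the Gja9_het samples and 2.54, 2.45, 2.29 and 2.31 in the wildtype samples. Only the first 2 Gja9_het samples were low, and the difference of -0.73 ± 0.43 did not pass (limma, adjusted p = 1). The low values came from 1 of its 2 spots, of different clones, which was at -0.30 and -0.42 in those samples and gave -1.20 ± 0.68, while the other spot gave -0.25 ± 0.33. Rpl11, which together with Rpl5 and 5S ribosomal RNA can bind the p53 regulator Mdm2, was at 1.01, 1.16, 0.57 and 1.27 in the Gja9_het samples and 1.66, 1.79, 1.48 and 1.91 in the wildtype samples, a difference of -0.70 ± 0.49 (limma, adjusted p = 1). Gja9_het values of Rpl11 were below all wildtype values. For its partner Rpl5 the difference was -0.03 ± 0.30 in Gja9_het minus wildtype and -0.51 ± 0.30 in Gja9_null minus wildtype (limma, adjusted p = 0.550).

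Rpl38, which in mice is needed for normal patterning of the axial skeleton, was at 1.38, 1.25, 1.60 and 1.58 in the Gja9_het samples and 0.09, 0.08, 1.71 and 1.69 in the wildtype samples. The first 2 wildtype samples stood apart, and the difference was 0.56 ± 0.42 (limma, adjusted p = 1). Its 2 spots, from different clones, gave -0.36 ± 0.31 and 1.48 ± 0.72. In Gja9_null minus wildtype they gave 0.28 and 1.01. The low wildtype values came from the second spot, at -2.17 and -2.05 in those samples.

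Large subunit genes with many spots allowed the closest look within a gene. In Gja9_null minus wildtype, Rpl15 differed by 0.27 ± 0.36, Rpl23, another Mdm2-binding protein, by 0.19 ± 0.33, and Rpl35, which sits at the tunnel exit, by 0.05 ± 0.31, each from 4 spots. Rpl21 and Rpl23a, a docking point for the signal recognition particle, had 3 spots each and differed by 0.31 ± 0.29 and -0.04 ± 0.28. The 3 spots of Rpl23a gave -0.68, -0.07 and 0.63, of which the first and last carry the same clone. None of these passed the test (limma).

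Small subunit proteins hold the messenger RNA and read its codons. Their median difference over 21 genes was 0.01 in Gja9_null minus wildtype, 0.09 in Gja9_het minus wildtype and -0.16 in Gja9_null minus Gja9_het. Estimates in Gja9_het minus wildtype were above 0 for 13 of the 21 genes, against 54.4% of all features.

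Rps25, which in human and yeast cells is needed for some internal ribosome entry, was at 1.31, 1.23, 2.06 and 1.92 in the Gja9_null samples, 1.92, 1.80, 1.98 and 1.90 in the Gja9_het samples and 1.56, 1.47, 1.22 and 1.22 in the wildtype samples. Gja9_het values were above all wildtype values, and the Gja9_null samples spread over both. The difference was 0.53 ± 0.29 in Gja9_het minus wildtype (limma, adjusted p = 1). Rps24, one of the genes mutated in human Diamond-Blackfan anaemia, differed by 0.44 ± 0.35 in the same comparison (limma, adjusted p = 1).

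Rps14, whose human counterpart is lost in the 5q- syndrome, averaged 2.52 ± 0.27 in Gja9_null samples and 1.71 ± 0.33 in Gja9_het samples (SD, n = 4 each). All Gja9_null values were above all Gja9_het values, a difference of 0.81 ± 0.37 (limma, adjusted p = 0.328). Against wildtype the Gja9_null difference was 0.52 ± 0.37 (limma, adjusted p = 0.635).

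Rpsa, also known as a laminin receptor, had the most spots of any of the genes, at 5. It was at 3.27, 3.16, 2.71 and 2.75 in the Gja9_null samples, 2.76, 2.73, 2.25 and 2.43 in the Gja9_het samples and 2.59, 2.71, 2.91 and 3.05 in the wildtype samples. The 3 genotypes overlapped. Its 5 spots gave between -0.06 and 0.38 in Gja9_null minus wildtype, and the gene 0.16 ± 0.32 (limma, adjusted p = 0.908).

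Rps6, the substrate of the S6 kinases downstream of mTOR, was at 0.93, 0.89, -0.16 and -0.11 in the Gja9_null samples, 0.53, 0.37, 0.52 and 0.62 in the Gja9_het samples and 0.32, 0.29, 0.40 and 0.38 in the wildtype samples. Its Gja9_null samples lay on both sides of the wildtype range, 1 array above and 1 below. The mean difference in Gja9_null minus wildtype was 0.04 ± 0.33. Its 3 spots gave -0.12, 0.75 and -0.52, and their first minus second Gja9_null array was 0.68, 0.38 and 2.10. The third spot had the lowest signal, at -2.30, -2.51, -4.48 and -4.52 in the Gja9_null samples. Rps3, which guards the messenger RNA entry and also acts in DNA repair, differed by -0.01 ± 0.46 in the same comparison. Rps23, at the decoding centre, was at 1.94, 2.29, 2.03 and 2.03 in the Gja9_null samples, against 2.85, 2.93, 1.22 and 1.26 in the wildtype samples, whose arrays lay above and below.

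The acidic stalk proteins Rplp1 and Rplp2 recruit elongation factors to the ribosome. Rplp1 was at 3.58, 3.12, 2.81 and 2.62 in the Gja9_null samples and 2.85, 2.83, 2.98 and 2.96 in the wildtype samples, a difference of 0.13 ± 0.41 (limma, adjusted p = 0.944). Rplp2 was at -0.89, -0.87, -0.27 and -0.11 in the Gja9_null samples and 0.11, 0.22, -0.23 and -0.08 in the wildtype samples, a difference of -0.54 ± 0.32 (limma, adjusted p = 0.554). The 2 spots of Rplp2, from different clones, gave 0.05 ± 0.39 and -1.13 ± 0.42 in Gja9_null minus wildtype. The genotypes overlapped for both genes.

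The paralogs arose from copies of core genes and are less uniformly expressed across tissues. Rps27l, a paralog of Rps27 and a p53 target, was at -2.36, -2.57, -1.34 and -0.96 in the Gja9_null samples, -1.13, -1.01, -1.05 and -1.19 in the Gja9_het samples and -0.75, -0.99, -0.95 and -1.02 in the wildtype samples. The first 2 Gja9_null samples were the low ones, and the difference from wildtype was -0.88 ± 0.49 (limma, adjusted p = 0.527). Differences in Gja9_null minus wildtype were -0.11 ± 0.33 for Rpl10l, a retrocopy best known from the testis, 0.14 ± 0.30 for Rpl22l1, 0.20 ± 0.46 for Rpl7l1 and 0.34 ± 0.32 for Rps4l. Rpl7l1 was the only one of the 61 genes among the dimmest 25% of features, at a mean of -2.03.

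Counts of genes whose samples did not overlap were below or near those over all features. In Gja9_null minus wildtype there were 9 (14.8%, against 23.1% of all features). Of these, 5 were higher in Gja9_null samples (Rpl14, Rpl6, Rpl7, Rpl7a and Rps14), against 7.52% of all features, and 4 were lower (Rpl17, Rpl29, Rpl4 and Rpl5), against 15.6%. In Gja9_het minus wildtype there were 5 (8.2% against 14.8%), with Rpl10l and Rps25 higher (8.67% of all features) and Rpl11, Rpl23a and Rpl37a lower (6.09%) in Gja9_het samples. In Gja9_null minus Gja9_het there were 19 (31.1% against 32.7%). Gja9_null samples were the higher ones for 8 genes (10.2% of all features) and the lower ones for 11 (22.5%).

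Which samples shared an array was read from the values, by how alike they were, so the likeness within an array is no separate result. The gap between the 2 arrays of a genotype, as the median over the genes of the absolute log2 difference of the array means, was 0.61 in Gja9_null, against 0.43 over all features. It was 0.23 in Gja9_het, against 0.28, and 0.32 in wildtype, against 0.36. Single gaps reached 1.65 for Rpl19 in Gja9_het, 1.65 for Rps23 in wildtype and 1.61 for Rpl38 in wildtype samples. In the 12 samples, the median deviation of the large subunit genes from their own means was -0.15, -0.26, 0.30 and 0.25 in Gja9_null, -0.23, -0.34, 0.20 and 0.11 in Gja9_het and 0.10, 0.05, 0.02 and 0.05 in wildtype samples. The second array of both mutant genotypes was thus higher than the first for this subunit. For the small subunit the deviations lay between -0.16 and 0.13, with the same direction in both mutant genotypes. They were -0.10, -0.03, 0.06 and 0.04 in Gja9_null and 0.09, -0.04, 0.10 and 0.13 in Gja9_het samples. Over all features the median deviations were -0.10, -0.10, -0.03 and -0.04 in Gja9_null and 0.11, 0.09, 0.08 and 0.05 in Gja9_het samples.

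**Figure D4:**
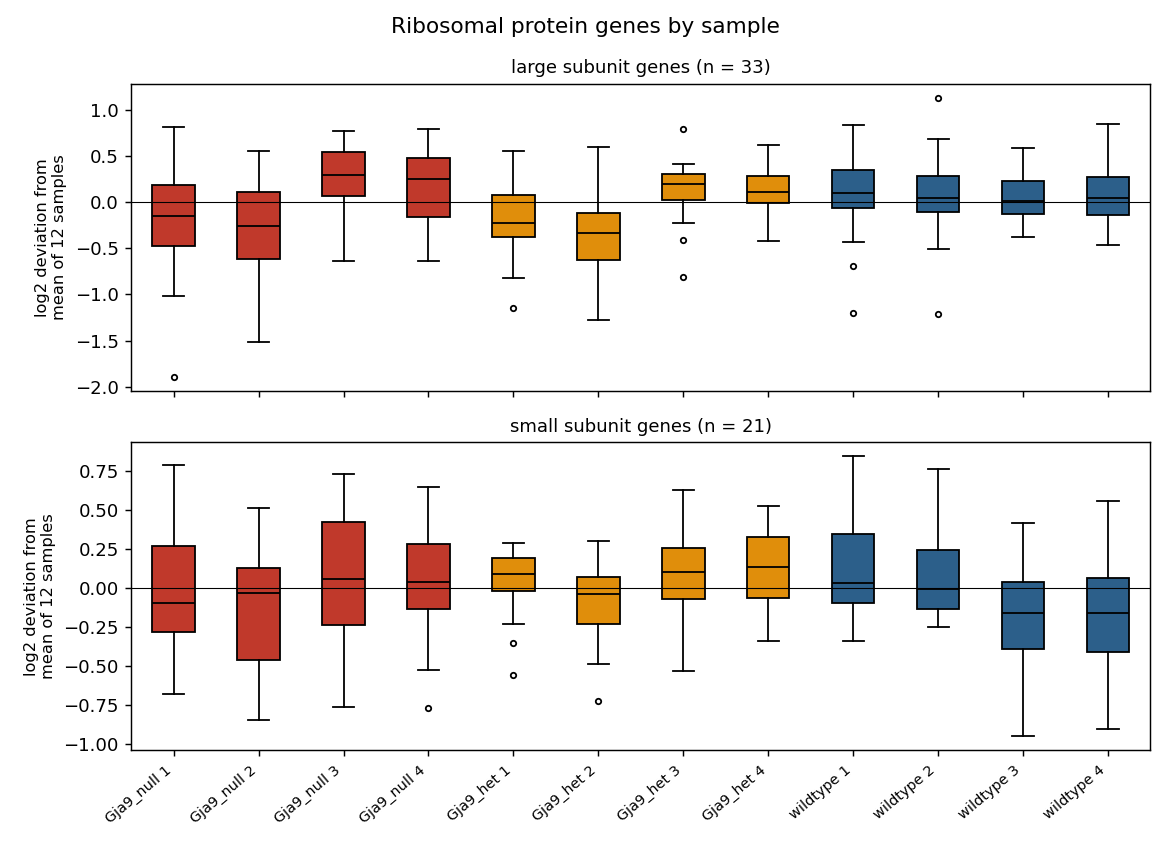
Deviation of each gene from its mean over the 12 samples (log2, y axis) by sample (x axis) for 33 large subunit and 21 small subunit genes (boxes from quartile to quartile with the median line, whiskers to the farthest gene within 1.5 box lengths, points beyond). Samples 1 and 2 of Gja9_null and Gja9_het sit lower than samples 3 and 4 in the upper panel.

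The gap between the Gja9_null arrays followed the position of the spot in the probe numbering. Over the 113 spots, the first array minus the second ranged from -2.05 to 2.10, and it correlated with the running median of all spots along the probe numbers at r = 0.83 across spots, which share the same 2 arrays and are not independent. Subtracting the running median lowered the median absolute gap to 0.20, against 0.59 before.

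With such a running median removed from every sample (local centring), Rpl17 differed by -0.97 ± 0.30 in Gja9_null minus wildtype (limma, adjusted p = 0.154) and by -0.64 ± 0.30 in Gja9_null minus Gja9_het (limma, adjusted p = 0.256). In Gja9_null minus wildtype the differences were -0.02 ± 0.21 for Rpl29, -0.08 ± 0.27 for Rpl24, -0.34 ± 0.29 for Rps27l, -0.55 ± 0.25 for Rpl4 and 0.65 ± 0.25 for Rpl7. Rpl5 came to -0.17, Rpl35 to 0.41, Rps3 to 0.43, Rpl23a to 0.16 and Rpl7l1 to -0.09, the last 3 with their sign turned. The sign also turned for other genes, some with larger shifts. Among them were Rps13 from -0.38 to 0.42, Rpl41 from -0.40 to 0.28 and Rpl13a from -0.43 to 0.12. In Gja9_null minus Gja9_het, Rpl37a differed by 0.74 ± 0.21 (limma, adjusted p = 0.0940). The median over the genes became 0.15 in Gja9_null minus wildtype, against -0.01 over all features, with 0.24 for the large and 0.15 for the small subunit. The median gap between arrays was 0.19 in Gja9_null, against 0.20 over all features. In Gja9_het the gap was 0.30, above its value before centring, against 0.25 over all features. In wildtype it was 0.22, against 0.25.

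**Figure D5:**
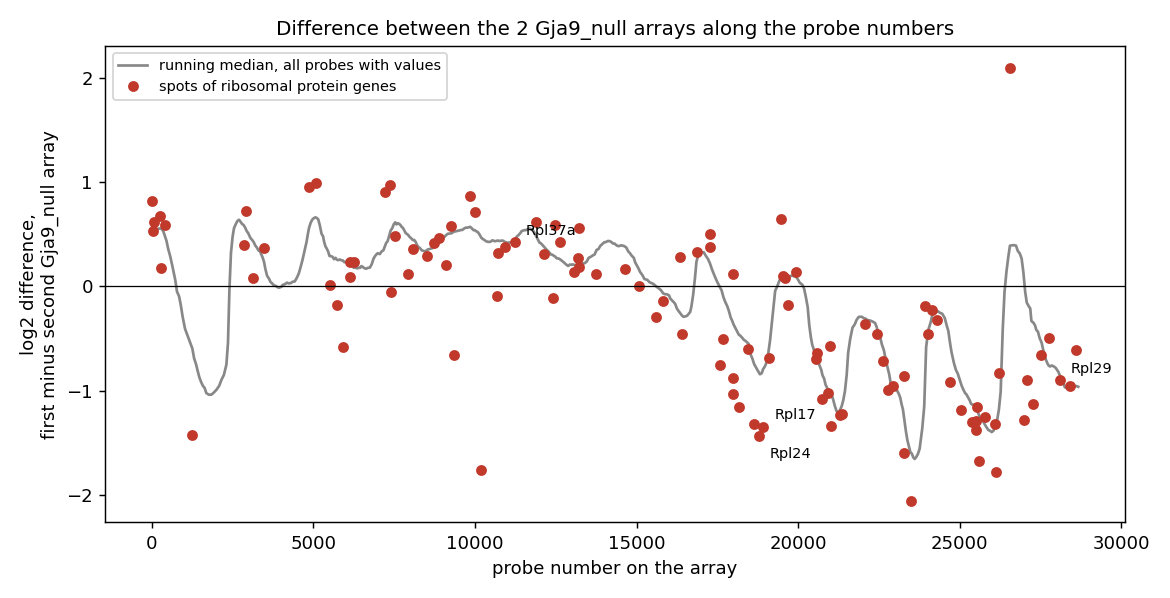
Difference between the first and the second Gja9_null array (log2, y axis) along the probe number (x axis) for the 113 spots of ribosomal protein genes (red points) and as a running median over all spots with values (grey line). Many points lie near the line, with Rpl17, Rpl24 and Rpl29 in stretches where the first array was lower.

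Spots of 1 gene gave unequal differences. Among the 36 genes with at least 2 spots, the range of Gja9_null minus wildtype over the spots had a median of 0.49 and ran from 0.06 to 1.71, and 17 genes had spots of both signs. Spots of the same clone differed by a median of 0.35 (24 pairs in 15 genes), and spots of different clones by 0.41 (50 pairs in 27 genes). The widest ranges were those of Rpl4, Rpl13a, whose protein is released to silence inflammatory messenger RNAs in human cells, and Rpl27. The spots of Rpl13a gave -1.25 and 0.39, and those of Rpl27 gave 0.05 and -1.33.

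When each spot was tested alone, 0 of the 113 were called in Gja9_null minus wildtype, against 0.126% of all 13443 spots. After local centring, 2 were called in Gja9_null minus wildtype (1.77%, against 0.632% of all spots) and 1 in Gja9_null minus Gja9_het (0.885%, against 0.915%). One spot of Rpl23a differed by 0.98 ± 0.19 in Gja9_null minus wildtype (limma, adjusted p = 0.0301) and by 1.0 ± 0.19 in Gja9_null minus Gja9_het (limma, adjusted p = 0.0348). One spot of Rps10 differed in Gja9_null minus wildtype by 0.90 ± 0.19 (limma, adjusted p = 0.0465). Another spot of the same Rpl23a clone gave a difference of the opposite sign before centring, as given above. After centring that spot gave -0.67 ± 0.23 in Gja9_null minus wildtype. The 3 spots of Rps10 gave 0.72, -0.43 and 0.50 before centring and 0.55, -0.73 and 0.90 after it. These genes were not called when their spots were averaged.

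Ribosomal protein messages are closely similar to those of their many processed pseudogenes, and spotted cDNA does not tell such sequences apart. Their part in these values was not tested.

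Dye differences were small beside these. In the Cy5 minus Cy3 term of the same model, 3 genes were called (4.92%), against 13.9% of all features. Rpl22l1 was higher in Cy5 by 0.21 ± 0.05 (limma, adjusted p = 0.0136), as was Rps3 by 0.24 ± 0.07 (limma, adjusted p = 0.0410), while Rpl11 was lower, at -0.26 ± 0.08 (limma, adjusted p = 0.0382). Leaving out any single sample left 1 or 2 of the genes called for dye, and leaving out Gja9_het sample 1 or 2, or the first Gja9_null array, left 1. The median over the 61 genes was 0.06, against 0.03 over all features.

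The wider translation machinery gave the same count. Of 19 measured other TOP messenger RNAs (23 listed), 66 ribosome biogenesis genes (121 listed), 21 genes of the mTOR pathway (46 listed), 43 translation factors (56 listed) and 53 mitochondrial ribosomal proteins, 0 were called in each genotype comparison. The medians in Gja9_null minus wildtype were 0.08, -0.10, 0.10, 0.07 and -0.03 in that order, against 0.01 for the cytosolic ribosomal proteins. After local centring they were 0.07, 0.01, 0.11, 0.07 and -0.06, against 0.15. Telo2, which stabilises the mTOR kinase, differed by -1.75 ± 0.38 in Gja9_null minus wildtype (limma, adjusted p = 0.0814), the smallest adjusted p in these lists for that comparison.

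Naca, a chaperone subunit with a TOP message, differed by -0.74 ± 0.33 (limma, adjusted p = 0.400). Riok1, an atypical kinase of small subunit maturation, differed by -1.06 ± 0.33 (limma, adjusted p = 0.238), and Mrps16 of the mitochondrial small subunit by -1.56 ± 0.44 (limma, adjusted p = 0.177). Eif2b4, a subunit of the exchange factor of initiation factor 2, differed by 0.76 ± 0.28 (limma, adjusted p = 0.308). In Gja9_het minus wildtype, Nap1l1, a histone chaperone with a TOP message, differed by 0.66 ± 0.28 (limma, adjusted p = 1). In Gja9_null minus Gja9_het, Eif6, which keeps the subunits apart, differed by -0.87 ± 0.37 (limma, adjusted p = 0.301).

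Markers of the cell types in brain were not called in any genotype comparison either. Median differences in Gja9_null minus wildtype were -0.30 for 5 neuron markers, -0.18 for 3 astrocyte markers, -0.64 for 3 oligodendrocyte markers and 0.19 for 4 markers of proliferating progenitors. After local centring these were -0.64 for neurons, 0.42 for astrocytes, with the sign turned, -0.03 for oligodendrocytes and 0.33 for progenitors. The smallest adjusted p among all marker lists was 0.0576 (limma), for the erythroid gene Alas2 in Gja9_null minus Gja9_het, at -1.71 ± 0.34. Hbb-b1 and Hba-a2, the other erythroid markers measured, had the opposite sign there, at 0.73 ± 0.41 and 0.18 ± 0.54. The part of cell composition in the ribosomal protein values was not tested.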

How the data were processed

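The authors' deposited values are log2 signals of 12 samples on 6 two-colour cDNA arrays, each relative to its own sample's mean (the values show this, because the linear signals average 1 in each sample). No source used here says how the authors treated background, dye or weak probes. Among 28704 probes, 13443 had values in all samples, and precision is limited by the number of arrays. Gene names came from the array's probe table. For 10263 of the probes tied to 1 gene the symbol was taken from RefSeq by gene number, whether or not it differed. Genes with several probes were averaged.

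limma 3.58.1 in R 4.3.3 (lmFit, eBayes, two-sided) fitted genotype and dye, with a random block for the array (correlation 0.927), with Benjamini-Hochberg adjustment over 9514 features. Samples 1 and 2 of a genotype, and 3 and 4, were taken to share an array, since the difference between samples 1 and 3 correlated with that between 2 and 4 at 0.919 to 0.940 across probes. Dye followed the label field, which the labelling text contradicts for Gja9_null 1 and wildtype 3. The fit was also run on simulated data with independent array effects and no trend along the probe numbers. Its outcome is not given here and is not used as support. Same-numbered samples deviated together in Gja9_het and wildtype (r from 0.13 to 0.24) and not in the other pairs of genotypes (r from -0.10 to 0.05).

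Genes, lists and tests were chosen with earlier results of these data known. Named genes were the 6 of smallest p per comparison, those with most probes, widest range over probes, largest array gap or smallest dye p, set roles, and up to 3 per other list. The Rps10 and Rpl23a spots called after local centring were chosen after their values were seen. Alternatives covered normalization, local centring, the array and replicate blocks, dye, dim probes, averaging, the prior, and leaving out an array or sample. Promoters came from RefSeq. Python 3.11.15 with pandas 2.3.3, numpy 2.4.6 and matplotlib 3.10.9 made tables and figures.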

Additional observations from a re-analysis of the deposited data

Results flagged for a closer look

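In 102 groups of 4 samples (34 named genes in 3 genotypes), 2 held a sample whose gap to the nearest other was a larger part of the group's range than Dixon's 95% critical value, where chance gives about 1 in 20 groups of independent samples. The 4 samples here are 2 pairs that share an array, so that rate does not hold as it stands. Rpl7a was at 1.45 in Gja9_het sample 2, below the other Gja9_het samples at 1.65, 1.69 and 1.67. Rps23 was at 2.41 in Gja9_het sample 4, above the others at 2.34, 2.35 and 2.35, a group with a narrow range.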

How the results depend on the processing

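For the genes of smallest p in each comparison, 18 differences were followed under 25 alternatives. Of these 450 values, 440 kept their direction and their side of the threshold. None of the 18 was called in the main fit, and a kept direction does not mean a kept size. Rpl29 in Gja9_null minus wildtype went from -0.89 to -0.02 with local centring. Without the array block the fit treats both colours of an array as independent: it called 3 genes in Gja9_null minus wildtype (4.92%, against 15.4% of all features), 10 in Gja9_null minus Gja9_het (16.4% against 22.3%), 9 in the F-test (14.8% against 21.0%), 10 single spots in Gja9_null minus wildtype (8.85% against 14.4%) and 0 for dye (0 features in all). Rpl38 in Gja9_het minus wildtype turned to -0.36 when the brightest spot stood for the gene. Local centring moved the median to 0.15 in Gja9_null minus wildtype (-0.01 over all features) and 0.20 in Gja9_null minus Gja9_het (-0.02 over all features). It also called 2 single spots in Gja9_null minus wildtype, and gave an array gap of 0.19 in Gja9_null and of 0.30 in Gja9_het. Without the first Gja9_null array the median was 0.18 in Gja9_null minus Gja9_het and 1 gene was called for dye. The cause of these shifts was not tested. With the replicate block 0 genes were called in each genotype comparison, and the medians were 0.01, -0.07 and 0.03.

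Leaving out each sample in turn kept 0 genes called in every genotype comparison and in the F-test, and 0 single spots. Calls for dye were between 1 and 2, with 1 without Gja9_het sample 1 or 2. Medians stayed between 0.00 and 0.05, between -0.10 and -0.05 and between 0.01 and 0.05 in the 3 comparisons, and array gaps between 0.55 and 0.61 in Gja9_null, 0.23 and 0.31 in Gja9_het and 0.29 and 0.35 in wildtype. With 2 arrays per genotype, even estimates beyond 2-fold were not called, such as -1.71 for Rpl17 in Gja9_null minus wildtype.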
